A study of Mus musculus with 3 samples.

Results

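The genes described here are 8 genes of the apical endocytic pathway and identity of the suckling enterocyte, the absorptive cell of the newborn gut: Cubn, Amn, Dab2, Lrp2, Fcgrt, Mamdc4, Pllp and Prdm1. They were taken by gene symbol from a table of 21983 genes, and all 8 were found in it. RNA was sequenced from the intestine of wild-type mouse pups in 3 groups with 1 library each. For the PCI34051+NEC library, necrotizing enterocolitis (NEC), in which the bowel of the newborn becomes inflamed and dies, was modelled in pups that were also fed PCI34051, a selective HDAC8 deacetylase inhibitor, at 10 mg/kg per day for 5 days. For the NEC library, pups in the model were given PBS in its place. The model joined 40 µl feeds of 33% formula, given by gavage at intervals of 4 h over 96 h, with hypoxia (99.9% nitrogen for 100 s) followed by cold (4 °C for 10 min) at intervals of 12 h. Control pups were fed by the dam, received PBS and had neither stress. Feeding, hypoxia and cold differed together between the model and the control, so their parts cannot be told apart. The pups' ages, the stretch of intestine taken and the number of pups behind each library are not in the labels.

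In the newborn intestine, enterocytes take up whole milk proteins by endocytosis and digest them inside lysosomes, a task that passes to enzymes of the gut lumen at weaning. Cubilin (Cubn), a large receptor without a membrane anchor of its own, is held at the apical surface by amnionless (Amn), and the adaptor Dab2 links such receptors to clathrin. Megalin (Lrp2) is a second giant receptor that works with cubilin in kidney and yolk sac, and the neonatal Fc receptor (Fcgrt) carries antibodies of milk into the pup. The repressor Prdm1 (Blimp1) holds back the adult enterocyte programme until weaning.

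Levels are read counts scaled to library size with TMM, a factor that assumes most genes to be equal between libraries, and are given as CPM, counts per 1000000 counts of the library. The libraries held 16497580 (PCI34051+NEC), 10650638 (NEC) and 15076413 (control) counts. With 1 library per group there was no replicate spread and no test. Every difference describes these 3 libraries and not the conditions, and the 95% intervals cover counting error only. A gene was measured in a comparison at 1 CPM or more in either library, and was called higher or lower at 2-fold on log2(CPM + 1), a scale that understates differences of low genes. The share of counts from genes of the mitochondrial genome was 3.73% in the PCI34051+NEC, 32.4% in the NEC and 4.88% in the control library, and its part in the results was not tested. In bulk tissue, fewer cells of a type and less RNA per cell cannot be told apart.

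In NEC against control, all 8 genes were measured, 7 were called lower and none higher, where 22.9% of all 14627 measured genes were called lower and 47.1% either way. Their median log2 fold was -2.55, against -0.03 for all measured genes. Mamdc4, a glycoprotein of apical endosomes, was the 1 gene under 2-fold. In PCI34051+NEC against NEC, 7 of the 8 were called higher and none lower, with a median of 2.11, where 25.0% of 14410 genes were called higher and 50.6% either way, and the median of all was 0.01. Here too Mamdc4 was the exception. These comparisons share the NEC library. With PCI34051+NEC set against control, Lrp2 and Prdm1 were called lower and none higher, where 6.55% of 13652 genes were called lower and 13.1% either way, and the median of the 8 was -0.39 against -0.00 for all genes. When the count of the epithelial adhesion gene Epcam was used as the scale, the calls in the first comparison were 2 higher (Cubn and Mamdc4) and none lower, and those in the second were none higher and 2 lower.

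**Figure D1:**
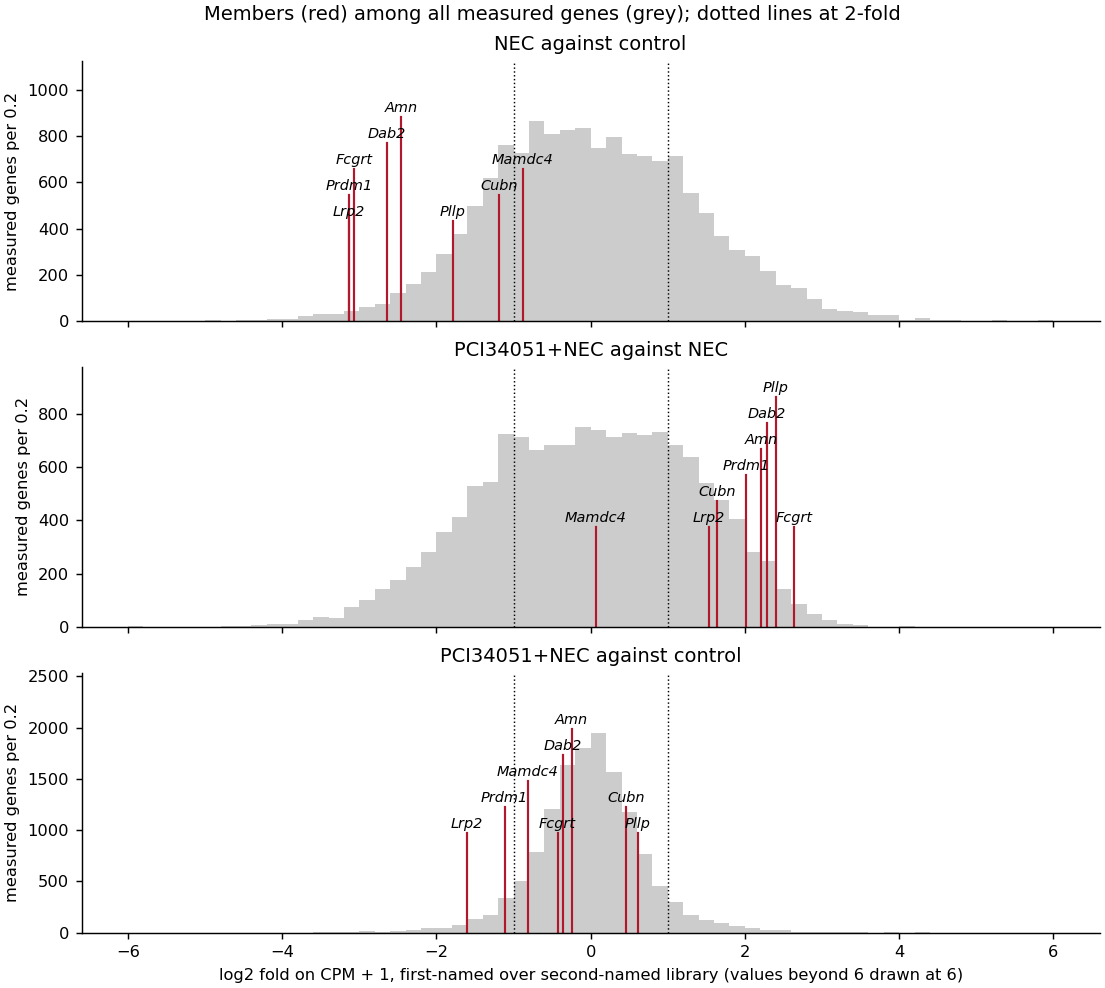
Histograms of the log2 fold on CPM + 1 of all measured genes (grey) in each comparison, first-named over second-named library, with the 8 genes as labelled red lines and 2-fold as dotted lines. In NEC against control 7 of 8 lie left of the lower 2-fold line, in PCI34051+NEC against NEC 7 of 8 lie right of the upper one, and Mamdc4 lies between the lines in all 3 panels; scaled to the Epcam count, 2 of 8 would lie beyond 2-fold in each of the first 2 panels, on the opposite side.

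Cubn, Amn and Dab2 make up the receptor complex. Cubn (ENSMUSG00000026726, minus strand of chromosome 2 from 13276338 to 13491813, mm10) was at 1108 CPM in the PCI34051+NEC, 355 CPM in the NEC and 809 CPM in the control library. It was thus 2.28-fold lower in NEC than in control (2.20 to 2.36), 3.12-fold higher in PCI34051+NEC than in NEC (3.01 to 3.23), and 1.37-fold higher in PCI34051+NEC than in control (1.34 to 1.40). Amn (ENSMUSG00000021278, plus strand of chromosome 12 from 111271095 to 111276426) was at 1285 CPM in the PCI34051+NEC, 277 CPM in the NEC and 1526 CPM in the control library. Its NEC level was 5.52-fold lower than in control (5.31 to 5.73), a larger difference than that of the receptor it anchors. Dab2 (ENSMUSG00000022150, plus strand of chromosome 15 from 6299788 to 6440712) was at 884 CPM in the PCI34051+NEC, 180.4 CPM in the NEC and 1132 CPM in the control library, and was 6.28-fold lower in NEC than in control (5.99 to 6.58). Amn and Dab2 were 4.65-fold (4.47 to 4.83) and 4.90-fold (4.68 to 5.14) higher in PCI34051+NEC than in NEC, and stayed 1.19-fold (1.16 to 1.21) and 1.28-fold (1.25 to 1.31) lower than in control.

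The balance within the complex can be read inside each library, where no scaling enters. Amn had 1.16 counts per Cubn count in the PCI34051+NEC (1.14 to 1.18), 0.779 in the NEC (0.743 to 0.817) and 1.89 in the control library (1.85 to 1.93). Dab2 had 0.798, 0.508 and 1.40 counts per Cubn count in the PCI34051+NEC, NEC and control libraries. Both partners were thus lowest against Cubn in the NEC library, and in the PCI34051+NEC library both lay between the NEC and the control ratio.

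The start regions of these 3 genes and of Mamdc4 are shown because the complex members lay on 1 side in each comparison with NEC while Mamdc4 stood apart. Each is 300 bases from RefSeq (GRCm38.p6), 250 before and 50 after the annotated start, on the gene's strand: Cubn at chr2:13491827-13492126 (minus strand), Amn at chr12:111270846-111271145 (plus strand), Dab2 at chr15:6299539-6299838 (plus strand) and Mamdc4 at chr2:25571267-25571566 (minus strand). Capitals mark matches on either strand to motifs chosen with the windows in view.
Cubn: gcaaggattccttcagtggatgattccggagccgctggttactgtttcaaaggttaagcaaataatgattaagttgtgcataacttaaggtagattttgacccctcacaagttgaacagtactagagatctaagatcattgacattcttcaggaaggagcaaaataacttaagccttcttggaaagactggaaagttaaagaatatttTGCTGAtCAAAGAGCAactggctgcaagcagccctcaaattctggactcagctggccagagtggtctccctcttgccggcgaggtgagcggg
Amn: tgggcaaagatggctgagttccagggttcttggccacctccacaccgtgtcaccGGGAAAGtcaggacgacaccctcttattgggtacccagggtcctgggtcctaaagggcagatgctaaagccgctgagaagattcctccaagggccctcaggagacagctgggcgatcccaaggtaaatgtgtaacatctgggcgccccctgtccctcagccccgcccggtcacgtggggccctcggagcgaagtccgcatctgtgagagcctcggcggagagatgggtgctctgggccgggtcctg
Dab2: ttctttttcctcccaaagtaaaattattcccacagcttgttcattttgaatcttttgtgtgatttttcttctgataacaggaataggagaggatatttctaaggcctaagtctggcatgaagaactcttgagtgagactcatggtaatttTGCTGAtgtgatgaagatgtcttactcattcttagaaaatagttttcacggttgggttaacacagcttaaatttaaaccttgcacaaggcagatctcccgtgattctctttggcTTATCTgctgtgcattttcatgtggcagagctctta
Mamdc4: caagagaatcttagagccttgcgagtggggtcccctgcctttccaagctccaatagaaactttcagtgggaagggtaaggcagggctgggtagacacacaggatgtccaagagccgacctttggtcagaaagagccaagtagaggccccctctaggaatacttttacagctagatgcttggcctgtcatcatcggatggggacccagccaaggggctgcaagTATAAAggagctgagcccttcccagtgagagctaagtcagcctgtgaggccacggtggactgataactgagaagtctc
The Cubn window held the MAF half-site letters TGCTGA at bases -42 to -37 and, 1 base further on, HNF4-type letters CAAAGNNCA at -35 to -27. The Dab2 window held TGCTGA at -100 to -95 and the GATA letters AGATAA, on the opposite strand, at 14 to 19. The Amn window held GNGAAAG, the PRDM1-type letters, at -196 to -190, and the Mamdc4 window held TATAAA at -28 to -23. Over the 9 windows of the 8 genes (Dab2 has another start), the MAF letters were in 3, the HNF4 letters in 2, and the GATA, TATA and PRDM1 letters, and the HNF1 half-site letters GTTAAT, in 1 each. Of 32851 windows of this length, 19.5% held the MAF letters, 6.36% the HNF4, 11.2% the GATA, 13.6% the TATA, 22.6% the PRDM1 and 7.10% the HNF1 letters. These matches describe letters and not sites of binding.

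Lrp2 (ENSMUSG00000027070, minus strand of chromosome 2 from 69424340 to 69586065) had the lowest level of the 8 per kilobase of exon in each library, with a level of 13.8 CPM and 210 counts in the PCI34051+NEC, 4.11 CPM (45 counts) in the NEC and 43.9 CPM (698 counts) in the control library. It was 10.7-fold lower in NEC than in control (7.90 to 14.8), an interval from 45 NEC counts that overlapped those of Prdm1 and Fcgrt, and 0.984% of measured genes had as low a log2 fold. It was 3.36-fold higher in PCI34051+NEC than in NEC (2.42 to 4.74) but 3.18-fold lower than in control (2.72 to 3.73), the largest difference of the 8 from control in the inhibitor library. Lrp2 had 0.0124 counts per Cubn count in the PCI34051+NEC library (0.0108 to 0.0143) and 0.0116 in the NEC library (0.00843 to 0.0155), against 0.0543 in the control library (0.0503 to 0.0586). The PCI34051+NEC and NEC ratios overlapped within counting error and both lay below the control ratio. Lrpap1, the chaperone that escorts megalin to the surface, was at 49.9, 26.6 and 80.3 CPM in the PCI34051+NEC, NEC and control libraries, in the same order as Lrp2 with smaller differences.

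Fcgrt (ENSMUSG00000003420, minus strand of chromosome 7 from 45092990 to 45103851), the heavy chain of the Fc receptor, was at 1489 CPM in the PCI34051+NEC, 238 CPM in the NEC and 2006 CPM in the control library. It was 8.42-fold lower in NEC than in control (8.09 to 8.76) and 6.25-fold higher in PCI34051+NEC than in NEC (5.999 to 6.51). In the inhibitor library it was 1.35-fold lower than in control (1.32 to 1.37). B2m, its light chain and also that of MHC class I molecules, was at 466, 93.6 and 631 CPM in the PCI34051+NEC, NEC and control libraries. Fcgrt had 3.19 counts per B2m count in the PCI34051+NEC (3.11 to 3.28), 2.55 in the NEC (2.37 to 2.74) and 3.18 in the control library (3.11 to 3.25). The chains thus kept nearly 1 ratio in the PCI34051+NEC and control libraries, and the ratio was lower in the NEC library. Pigr, the receptor that carries IgA out into the gut lumen, was at 4.34 CPM (66 counts), 18.0 CPM (197 counts) and 9.75 CPM (155 counts) in the PCI34051+NEC, NEC and control libraries, an order unlike that of Fcgrt. Of the 4 immunoglobulin transport partners, B2m and Pigr included, 1 was higher and 2 lower in NEC than in control. Of all measured genes, 24.2% were higher and 22.9% lower. Endothelial cells also make Fcgrt, and their 7 markers summed to 139, 174 and 124 CPM in the PCI34051+NEC, NEC and control libraries. Fcgrt was lowest in the NEC library, and the part of endothelial cells in its level was not tested.

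Mamdc4 (ENSMUSG00000026941, minus strand of chromosome 2 from 25563115 to 25574845), also called endotubin and known from the apical tubular endosomes of suckling gut, had the highest level of the 8 per kilobase of exon in each library. It was at 4298 CPM in the PCI34051+NEC, 4106 CPM in the NEC and 7548 CPM in the control library, which made it the 15th, 12th and 6th most counted gene of these libraries. It was 1.84-fold lower in NEC than in control (1.82 to 1.86) and 1.76-fold lower in PCI34051+NEC than in control (1.74 to 1.77). Between PCI34051+NEC and NEC it differed by 1.05-fold (1.03 to 1.06). The model libraries were therefore nearly level, while the other 7 genes lay at least 3.12-fold higher with the inhibitor. Mamdc4 had 3.34 counts per Amn count in the PCI34051+NEC library (3.29 to 3.40), 14.8 in the NEC library (14.3 to 15.4) and 4.95 in the control library (4.88 to 5.02). Exons of Mamdc4 share 418 bases with those of Phpt1 on the same strand, so some counts may be split between them. Phpt1 was at 49.6, 30.7 and 44.7 CPM in the PCI34051+NEC, NEC and control libraries. With the trend of the folds with GC content and transcript length removed, Mamdc4 was past 2-fold in NEC against control, at -1.50 on the log2 scale. With total counts as the scale, it was also called lower in PCI34051+NEC against control.

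Pllp (ENSMUSG00000031775, minus strand of chromosome 8 from 94674894 to 94696278) encodes plasmolipin, a myelin proteolipid that in zebrafish works in endosomal sorting of gut absorptive cells. Its level was 28.4 CPM (433 counts) in the PCI34051+NEC, 4.57 CPM (50 counts) in the NEC and 18.2 CPM (290 counts) in the control library. It was 4.00-fold lower in NEC than in control (2.95 to 5.51), 6.23-fold higher in PCI34051+NEC than in NEC (4.64 to 8.52) and 1.56-fold higher in PCI34051+NEC than in control (1.34 to 1.82). Pllp and Cubn were the genes of the 8 above the control level in the inhibitor library. Markers of enteric glia and neurons, cells in which a myelin protein could also occur, summed to 51.8, 307 and 55.0 CPM in the PCI34051+NEC, NEC and control libraries. They were highest in the NEC library, where Pllp was lowest at 50 counts. The part of these cells in the level of Pllp was not tested.

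**Figure D2:**
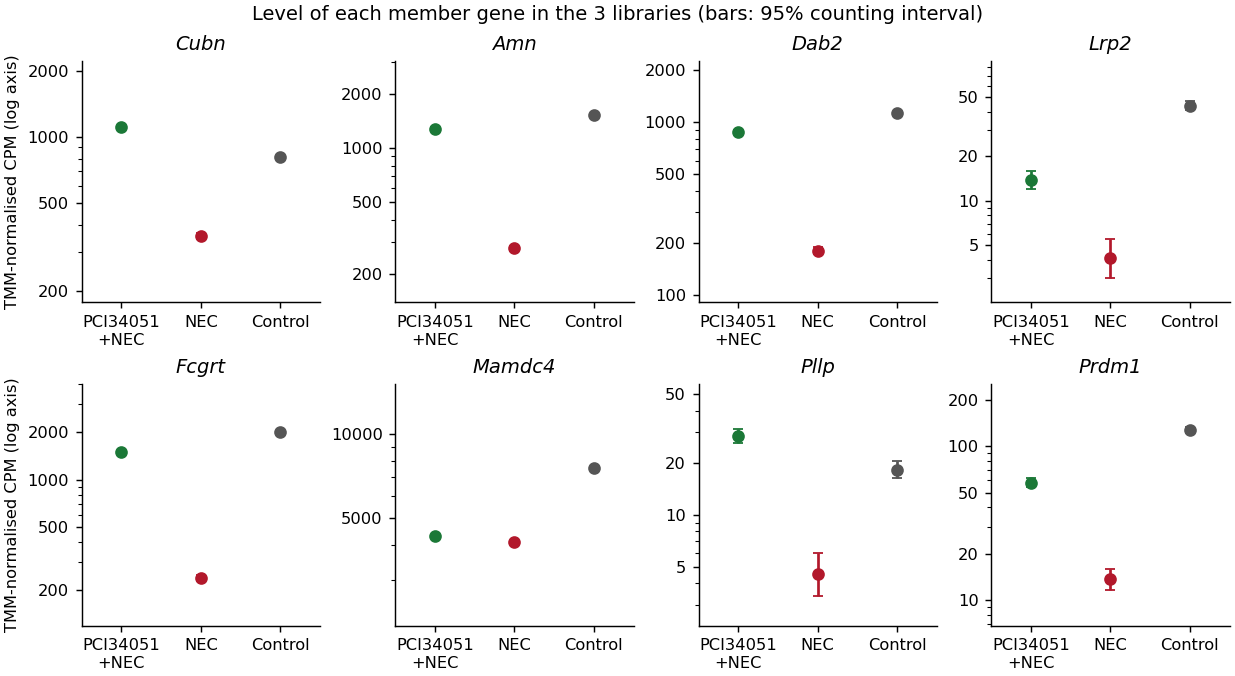
TMM-normalised CPM of each gene (log axis, with its own range in each panel) in the PCI34051+NEC, NEC and control libraries, 1 library per group, with 95% counting intervals that are smaller than the point for abundant genes. Each gene is lowest in the NEC library, and Cubn and Pllp are highest in the PCI34051+NEC library. Mamdc4 is nearly level in the PCI34051+NEC and NEC libraries (4298 and 4106 CPM). The order of the NEC library depends on scaling to all genes. Per Epcam count Cubn, Amn, Dab2, Mamdc4 and Pllp are highest in the NEC library, with Pllp within counting error of the PCI34051+NEC library.

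Prdm1 (ENSMUSG00000038151, minus strand of chromosome 10 from 44437177 to 44528501) had a level of 58.0 CPM (883 counts) in the PCI34051+NEC, 13.6 CPM (149 counts) in the NEC and 127 CPM (2016 counts) in the control library. It was 9.32-fold lower in NEC than in control (7.89 to 11.1) and 4.26-fold higher in PCI34051+NEC than in NEC (3.58 to 5.11). In the inhibitor library it stayed 2.19-fold lower than in control (2.02 to 2.37). Among 10320 genes at 10 CPM or more in their highest library, genes were ranked by how near their pair of log2 folds against control lay to that of Prdm1, over the 3 libraries. Tinag and Hdhd3 were among the nearest, at a distance of 0.06 each on the log2 scale, and Lrp2 was at rank 65. Maf, a transcription factor of the suckling enterocyte, was at 636, 284 and 375 CPM in the PCI34051+NEC, NEC and control libraries, and so higher in PCI34051+NEC than in control, where Prdm1 was lower.

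Prdm1 is also made by plasma cells, T cells and macrophages, and Fcgrt by macrophages. The 7 plasma and B cell markers summed to 0.985, 1.46 and 44.4 CPM and the 6 T and innate lymphoid markers to 2.76, 2.65 and 17.6 CPM in the PCI34051+NEC, NEC and control libraries, with the plasma cell gene Jchain at 0 counts in all 3. Both lists were near their NEC level in the PCI34051+NEC library, where Prdm1 was 4.26-fold higher than in NEC. The 8 macrophage markers summed to 255, 211 and 511 CPM in the PCI34051+NEC, NEC and control libraries. Csf1r gave 160.4, 58.8 and 406 CPM of this, but the markers did not move together. In NEC against control 2 of the 8 were higher and 2 lower (24.2% and 22.9% of all measured genes), with a median of 0.47. Cd163, 1 of the higher ones, was at 4.99, 24.5 and 0.440 CPM in the PCI34051+NEC, NEC and control libraries. The part of all these cells in the levels of Prdm1 and Fcgrt was not tested.

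Nearest genes of the other members by the same measure were mostly not members. Amn and Dab2 lay close to each other, at a distance of 0.21, which put Dab2 at rank 69 of the genes nearest to Amn and Amn at rank 41 of those nearest to Dab2. The nearest genes were Ube2g1, Ubqln1 and Igf2bp3 for Cubn, Srd5a3, Qdpr and Acox2 for Amn, and Naaladl1, Tor4a and Adal for Dab2. For Lrp2 they included Atp11a and Abca13, and for Fcgrt they were Slc46a1, Cutal and H2-D1. For Mamdc4 they were Mitd1, Appl2 and Pgghg, and for Pllp they were Pttg1ip, Itm2a and Npc1l1. Cubn lay far from its partners, with Amn at rank 5386 and Dab2 at rank 6154.

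Per kilobase of annotated exon, a scale on which genes can be set side by side, the order in the PCI34051+NEC library was Mamdc4 (928 CPM per kilobase), Fcgrt (708), Amn (697), Dab2 (120.4), Cubn (74.2), Pllp (13.7), Prdm1 (10.4) and Lrp2 (0.826), with overlapping intervals for Fcgrt and Amn. In the NEC library the order was Mamdc4 (887 CPM per kilobase), Amn (150.05), Fcgrt (113), Dab2 (24.6), Cubn (23.8), Prdm1 (2.44), Pllp (2.19) and Lrp2 (0.246). There the counting intervals of Dab2 and Cubn overlapped, as did those of Prdm1 and Pllp. In the control library it was Mamdc4 (1630 CPM per kilobase), Fcgrt (954), Amn (828), Dab2 (154), Cubn (54.1), Prdm1 (22.7), Pllp (8.76) and Lrp2 (2.63). Exons of all annotated transcripts enter these lengths, so the per-kilobase levels are approximate. The levels of Mamdc4, Fcgrt and Amn led and Lrp2 came last in each library, and Prdm1 stood below Pllp in the PCI34051+NEC but above it in the control library.

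The 9 epithelial markers summed to 8194 CPM in the PCI34051+NEC, 3215 CPM in the NEC and 7469 CPM in the control library, and their members did not move together. Epcam was at 2797, 404 and 2731 CPM, and Vil1, the microvillus protein villin, at 983, 492 and 1015 CPM, whereas Krt19 was at 117, 638 and 54.2 CPM in the PCI34051+NEC, NEC and control libraries. Counts of the 8 genes were therefore also set against Epcam and against Vil1 within each library. Cubn had 0.396, 0.878 and 0.296 counts per Epcam count, and 1.13, 0.722 and 0.797 counts per Vil1 count, in the PCI34051+NEC, NEC and control libraries. Fcgrt had 0.532, 0.589 and 0.734 counts per Epcam count, and 1.51, 0.484 and 1.98 counts per Vil1 count. Prdm1 had 0.0207, 0.0336 and 0.0464 counts per Epcam count, and 0.0590, 0.0277 and 0.125 counts per Vil1 count.

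Set against Epcam, Lrp2, Fcgrt and Prdm1 were lower in NEC than in control, by 1.58-fold, 1.25-fold and 1.38-fold. Cubn, Amn, Dab2, Mamdc4 and Pllp were higher, by 2.96-fold, 1.22-fold, 1.08-fold, 3.67-fold and 1.69-fold. Set against Vil1, 7 of the 8 were lower in NEC, from 1.10-fold for Cubn to 5.18-fold for Lrp2, and Mamdc4 was 1.12-fold higher. In PCI34051+NEC against NEC, all 8 genes were lower per Epcam count, Mamdc4 by 6.61-fold, and 7 of the 8 were higher per Vil1 count, Mamdc4 being 1.91-fold lower. For Pllp the counting intervals per Epcam count overlapped, at 0.00923 to 0.0112 in the PCI34051+NEC and 0.00837 to 0.0149 in the NEC library. With PCI34051+NEC set against control the choice made little difference, because Epcam and Vil1 differed by only 1.02-fold and 1.03-fold between these libraries. There Lrp2 was 3.26-fold lower per Epcam count and 3.08-fold lower per Vil1 count, and Prdm1 2.24-fold and 2.12-fold lower. Epcam scaling moved the median log2 fold of all measured genes to 2.34 in NEC against control, where the median of the 8 was 0.20, and to -2.32 in PCI34051+NEC against NEC, where it was -0.63. A change of scale moves all genes alike, so the gap between the 8 and all genes is largely fixed by construction.

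**Figure D3:**
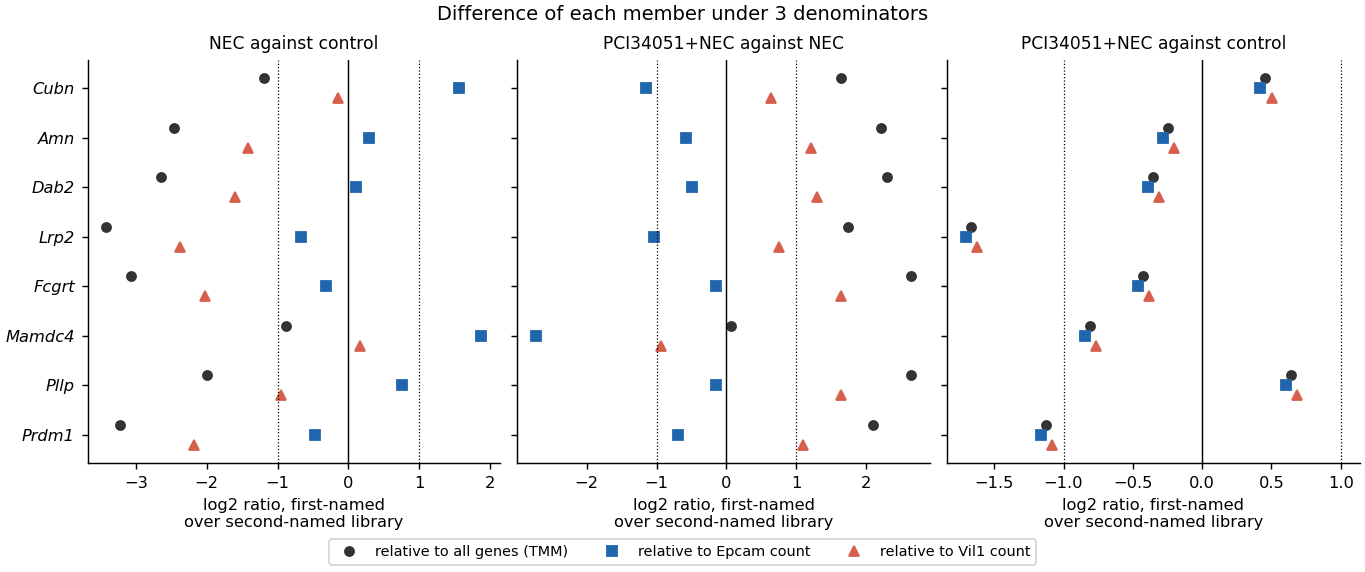
Log2 ratio of each of the 8 genes, first-named over second-named library, relative to all genes by TMM (black circles), to the Epcam count (blue squares) and to the Vil1 count (red triangles), with 2-fold as dotted lines. The 3 symbols lie far apart in both comparisons with the NEC library, where direction turns for several genes, and close together in PCI34051+NEC against control, where Lrp2 and Prdm1 lie beyond 2-fold lower under each.

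Genes around the 8 were read as lists. Of 34 measured genes of endocytic adaptors and vesicle machinery, 2 were higher and 18 lower in NEC than in control (24.2% and 22.9% of all measured genes), with a median of -1.10. Clcn5, an endosomal chloride exchanger, was at 304, 49.8 and 247 CPM in the PCI34051+NEC, NEC and control libraries, and Rab11a, of the recycling endosome, at 456, 116 and 653 CPM. The clathrin light chain Clta was at 334, 98.5 and 400.4 CPM. The clathrin-binding gene Hip1 was opposite in direction, at 20.8, 97.9 and 12.2 CPM. In PCI34051+NEC against NEC, 19 of 34 were higher and 1 lower (25.0% and 25.6% of all), with a median of 1.18. With PCI34051+NEC set against control, 1 was higher, the phosphatase gene Inpp5b at 94.1 and 37.3 CPM, and none lower (6.55% each way of all), with a median of 0.14.

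A list of 14 suckling-type enterocyte genes other than the 8 was mostly of the lysosome. Of these, 13 were lower and none higher in NEC than in control (22.9% and 24.2% of all measured genes), with a median of -2.81. In PCI34051+NEC against NEC, 12 were higher and none lower (25.0% and 25.6% of all), with a median of 2.75. The cathepsin gene Ctsl was at 1447, 176.8 and 3848 CPM and Ctsb at 3016, 492 and 6266 CPM in the PCI34051+NEC, NEC and control libraries. Both were lower in PCI34051+NEC than in control, by 2.66-fold (2.62 to 2.70) and 2.08-fold (2.05 to 2.10). The lysosomal protease Lgmn was at 8183, 1081 and 11800.3 CPM, and the glucuronidase gene Gusb at 469, 71.1 and 782 CPM. Lactase (Lct), the milk sugar enzyme, was at 813, 84.6 and 192 CPM and so 4.24-fold higher in PCI34051+NEC than in control (4.08 to 4.42). The transcobalamin gene Tcn2, whose product carries vitamin B12 after its uptake through cubilin, was at 1114, 135 and 1228 CPM in the PCI34051+NEC, NEC and control libraries. It belonged to a list of 8 measured ligands and carriers. Of these, 4 were higher and 1 lower in NEC than in control (24.2% and 22.9% of all), with a median of 0.79. In PCI34051+NEC against NEC, 2 of these 8 were higher and 5 lower (25.0% and 25.6% of all), with a median of -1.26. Albumin (Alb), a ligand of both receptors made chiefly in liver, was at 0.394, 100.4 and 9.31 CPM in the PCI34051+NEC, NEC and control libraries, and the 8 liver markers, Alb among them, summed to 19.8, 167 and 37.9 CPM. Compared with control, the inhibitor library had 1 of the 14 suckling-type genes higher and 2 lower (median -0.22). Of the 8 ligands and carriers, 1 was higher and 2 lower there (median -0.39). The share of all measured genes was 6.55% each way in that comparison.

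Of 6 measured adult-type enterocyte genes, 1 was higher and none lower in NEC than in control (24.2% and 22.9% of all), with a median of 0.02. That gene was Sis, sucrase-isomaltase, which normally comes on at weaning, at 16.6 CPM in the PCI34051+NEC, 37.3 CPM in the NEC and 3.84 CPM in the control library. It was 9.71-fold higher in NEC than in control (7.40 to 12.9) and 4.33-fold higher in PCI34051+NEC than in control (3.26 to 5.82). With PCI34051+NEC set against control, 5 of 6 were higher and none lower (6.55% each way of all), with a median of 1.17. Mgam, Slc5a1 and Anpep were among these 5. They were already at 398, 241 and 296 CPM in the dam-fed control library, so the list's name does not hold for all its genes. The 9 absorptive enterocyte markers share Anpep and Slc5a1 with this list. Of them, 5 were higher and none lower in PCI34051+NEC than in control, with a median of 1.08. In NEC against control, 5 of these 9 were lower and none higher (22.9% and 24.2% of all), with a median of -1.04. All 9 were higher in PCI34051+NEC than in NEC (25.0% of all), with a median of 2.14, where that of the 8 genes was 2.11. The direction of the 8 in the comparisons with NEC was thus shared by general enterocyte markers. In PCI34051+NEC against NEC, 3 of 5 measured adult-type genes were higher and 1, Sis, lower (25.0% and 25.6% of all), with a median of 1.13. The maltase gene Mgam was at 799, 454 and 398 CPM in the PCI34051+NEC, NEC and control libraries, under 2-fold between the first 2. In the same order, the sodium-glucose transporter gene Slc5a1 was at 513, 147 and 241 CPM. The aminopeptidase gene Anpep was at 781, 357 and 296 CPM. Arg2, another adult-type gene held back by Prdm1 in mouse, had 5, 0 and 1 counts in the PCI34051+NEC, NEC and control libraries and was not detectable as different at this depth.

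Of 22 measured enterocyte transcription factor genes, Prdm1 included, 1 was higher and 6 lower in NEC than in control, with a median of -0.67, where 24.2% of all measured genes were higher and 22.9% lower. The share of lower genes was thus near that of all genes. Cdx2, the intestinal homeobox factor, was at 213, 77.4 and 299 CPM and Hnf4a at 347, 196 and 517 CPM in the PCI34051+NEC, NEC and control libraries. In PCI34051+NEC against NEC, 14 of 22 were higher and none lower (25.0% and 25.6% of all), with a median of 1.15. With PCI34051+NEC set against control, 5 of 21 were higher and 2 lower (6.55% each way of all), Prdm1 among the lower ones. Gata4, a factor of the proximal small intestine, was at 46.4, 8.95 and 3.21 CPM in the PCI34051+NEC, NEC and control libraries.

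**Figure D4:**
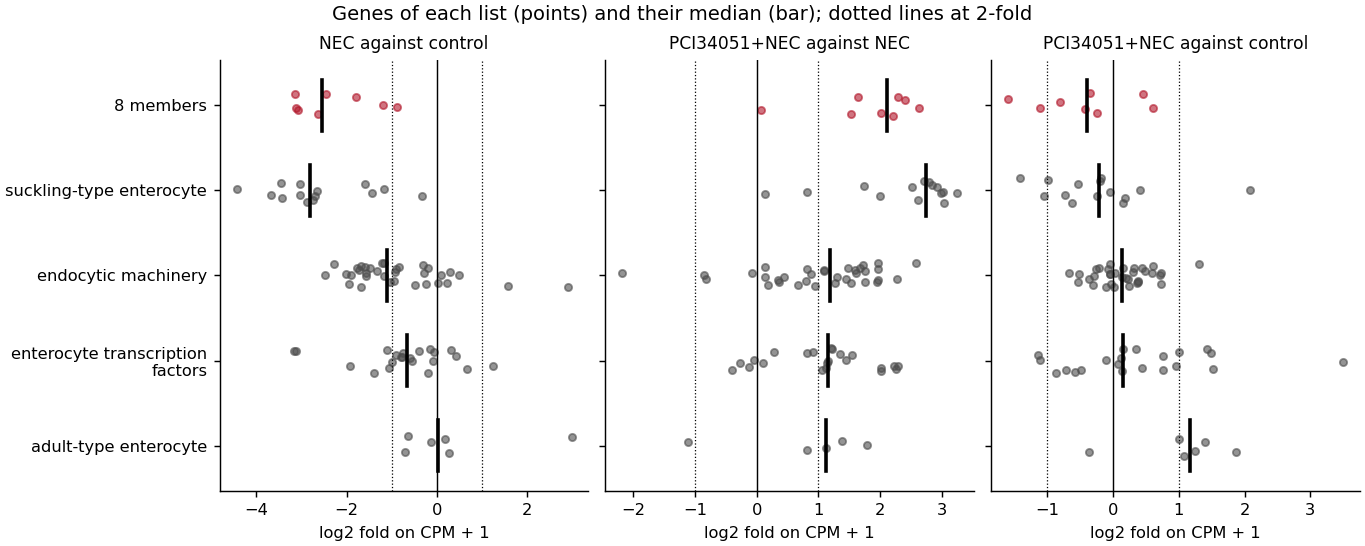
Log2 fold on CPM + 1 of each measured gene (points) and the median (bars) of the 8 genes, in red, and of 4 surrounding lists, in grey, for the 3 comparisons, with 2-fold as dotted lines. In NEC against control the suckling-type list (median -2.81) lies beside the 8 genes (-2.55). In PCI34051+NEC against control the list named adult-type (1.17) lies above them (-0.39). Some genes of that list were already abundant in the control library. Scaling to the Epcam count would move all points of the first panel up and all points of the second down.

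Markers of other tissues and regions were also read, and their lists did not all follow the order of the 8 genes. The 8 kidney markers, of cells that also carry cubilin and megalin, summed to 3, 54 and 28 counts in the PCI34051+NEC, NEC and control libraries. These sums were low, but that of the NEC library was above the 45 counts of Lrp2 there. The part of such cells was not tested. The 4 markers of yolk sac or fetal endoderm, whose cells also carry this receptor complex, summed to 537, 87.9 and 1142 CPM in the PCI34051+NEC, NEC and control libraries. Nearly all of this was Afp at 321, 27.6 and 786 CPM and Ttr at 209, 57.6 and 353 CPM, in the same order of libraries as most of the 8 genes, and their part was not tested. Smooth muscle markers summed to 1307, 11134 and 1271 CPM and fibroblast markers to 719, 2664 and 760 CPM in the PCI34051+NEC, NEC and control libraries, both highest where the 8 genes were lowest. The 4 markers of the proximal small intestine summed to 412, 101.1 and 3.71 CPM, mostly through Fabp1 with 5537, 743 and 2 counts, and the 4 ileal markers to 442, 264 and 269 CPM. Markers of the colon summed to 24.2, 7.12 and 28.2 CPM, with Car1 and Hoxb13 at 0 counts in all 3. In mouse, this kind of endocytosis is a feature of the distal small intestine, and the part of the stretch sampled was not tested.

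**Figure D5:**
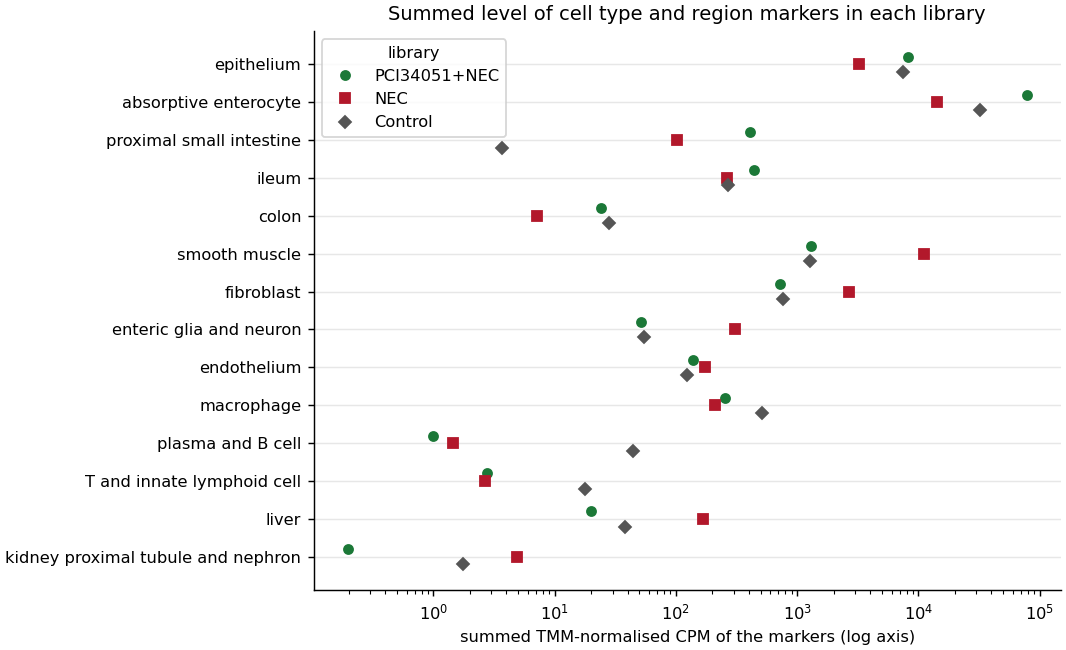
Summed TMM-normalised CPM (log axis) of marker lists in the PCI34051+NEC (green circles), NEC (red squares) and control (grey diamonds) libraries. Smooth muscle, fibroblast and glia and neuron markers are highest in the NEC library, epithelial and absorptive enterocyte markers are lowest there, and proximal small intestine markers are lowest in the control library (3.71 CPM, against 412 and 101.1 CPM in the PCI34051+NEC and NEC libraries).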

How the data were processed

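Per the labels' protocols, each library was sequenced as paired-end reads on an Illumina instrument. The authors deposited raw counts of reads per gene symbol for the 3 libraries. Reads were placed on mm10, according to the submitters' processing notes. Which aligner, annotation and strand setting were used is not given in the sources used here, and so counts may be shared by overlapping and antisense genes. The header of the third column differs in letters from the PCI34051+NEC sample's description; since no other sample has its ending or an inhibitor, it was taken as that sample, and all PCI34051+NEC values depend on this. All columns were used, and each row named a gene.

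GENCODE M21 matched 21926 of the 21983 symbols and gave identifiers, coordinates and exon lengths. RefSeq (GRCm38.p6) gave the promoter windows. TMM factors from edgeR 4.0.16 under R 4.3.3 were 0.923 (PCI34051+NEC), 1.03 (NEC) and 1.05 (control). A pseudocount of 1 CPM was added for log2 folds. Ratios printed with intervals are of CPM without it, with exact conditional binomial (Clopper-Pearson) 95% intervals; reads were not counted as unique molecules, so these cover counting error only. No p-value could be had from 1 library a group. The steps were tested on simulated counts with known folds, in which a small set of genes was changed equally up and down. The real libraries differed far more widely, so that simulation does not bear on the choice of scale.

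The members, gene lists, markers and alternatives were chosen with earlier results of these data known. All 8 members are named, with up to 4 genes of a list by the size of the NEC difference at 5 CPM or more, obligate partners, Maf, and the 3 nearest genes of each member, of which some are not reported here. Lct, Inpp5b, Arg2, Phpt1, Vil1, Jchain, Car1 and Hoxb13 were named after their values were seen, as was the use of Epcam and Vil1 as scales. Other scalings tried were size factors of DESeq2 1.42.0, total counts, TMM without mitochondrial and the 50 most abundant genes, and the summed epithelial markers. Pseudocounts of 0.25 and 4, no minimum level, a minimum of 5 CPM, a threshold of 1.5-fold, intervals wholly beyond 2-fold, and thinning to the depth of the NEC library were also tried. A further alternative removed the trend with GC content and exon length. TMM without the NEC library and scaling to Epcam or Vil1 were added after the data were seen. Python 3.11.15 (numpy 2.4.6, pandas 2.3.3, scipy 1.17.1) made the values and matplotlib 3.10.9 the plots.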

Additional observations from a re-analysis of the deposited data

How the results depend on the processing

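With DESeq2 size factors, scaling without the most abundant genes, both pseudocounts, no filter, the minimum of 5 CPM, intervals beyond 2-fold and thinning, the counts of the 8 genes apart stayed at 7, 7 and 2 in NEC against control, PCI34051+NEC against NEC and PCI34051+NEC against control. No filter and the minimum of 5 CPM could not change these counts, since each of the 8 was above 5 CPM in the higher library of each comparison. Total counts gave 3 in the last, with all measured genes shifted by -0.18 and 633 higher and 1256 lower (894 each with TMM), and they shifted PCI34051+NEC against NEC by -0.14. The 1.5-fold threshold gave 4 in the last, where all measured genes called were 4452 against 1788, and 991 with a pseudocount of 4. Removal of the GC content and length trend gave 8 in NEC against control.

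Scaling to the epithelial markers shifted all measured genes by 1.10 in NEC against control (8023 higher and 826 lower, against 3540 and 3354) and by -1.19 in PCI34051+NEC against NEC (531 and 8381, against 3597 and 3695). With it, 5 of the 8 were lower and none higher in the first, where Cubn turned to 0.0284 and Mamdc4 to 0.34. In the second 2 were higher (Fcgrt and Pllp) and 1 lower, a total of 3, the lower being Mamdc4 at -1.28. Scaling to Vil1 gave 5 lower in the first, where Mamdc4 turned to 0.17, and 5 higher in the second, where it turned to -0.93, with 7260 higher and 974 lower genes in the first and 1037 and 7081 in the second. Under scaling to Epcam none of the 7 calls held in either comparison; Cubn and Mamdc4 were called 2-fold higher in the first and lower in the second, with 13780 higher and 153 lower genes in the first and 43 and 13705 in the second. It turned the log2 folds in the first to 1.88 (Mamdc4), 1.57 (Cubn), 0.29 (Amn), 0.11 (Dab2) and 0.70 (Pllp). In the second it turned them to -2.72 (Mamdc4), -1.15 (Cubn), -0.57 (Amn), -0.50 (Dab2), -0.95 (Lrp2), -0.15 (Fcgrt), -0.14 (Pllp) and -0.68 (Prdm1). These shifts follow from the scale, since Epcam was 6.75-fold lower in NEC than in control; which scale fits the tissue was not tested. Of the single-gene folds under all alternatives, 60 of 96, 56 of 96 and 78 of 104 stayed within their counting interval in the 3 comparisons. These counts include the folds under no filter and the minimum of 5 CPM, which could not move any fold. No paired analysis was possible because each group has 1 library. Depth limits Lrp2 and Pllp, with 45 and 50 counts in the NEC library.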
